A study of Mus musculus with 2 samples.

Results

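Hyaluronan is a long sugar polymer of the extracellular matrix. It is spun out at the plasma membrane by hyaluronan synthases, held in place by link proteins and large proteoglycans, cross-linked by secreted binding proteins, bound on cells by receptors such as CD44, and cut by hyaluronidases. In embryonic mesenchyme a hyaluronan- and versican-rich matrix is known as a loose, hydrated environment in which cells move and divide before tissues condense. The 10 genes described here cover these roles: Has1, Has2 and Has3 (synthases), Hapln1 and Hapln3 (link proteins), Vcan (the proteoglycan versican), Tnfaip6 (the secreted hyaluronan-binding protein TSG-6), Cd44 (a receptor), and Hyal1 and Hyal2 (hyaluronidases). All array probes carrying one of these gene names were taken, which gave 18 of 39429 probes. The 10 genes were chosen by role and by signal ratios of this same comparison already known. Their ratios are therefore given as a description, with no test and no support drawn from them.

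The RNA came from ureters dissected from NMRI mouse embryos at E14.5. Smad4cKO embryos were Tbx18(cre/+);Smad4(fl/fl), and control embryos were Tbx18(+/+);Smad4(fl/+). In the first group Cre made from the Tbx18 locus is used to remove Smad4, the shared SMAD of BMP and TGFB signalling, from the ureteric mesenchyme. All embryos carried at least 1 floxed Smad4 allele, and only the Smad4cKO embryos carried Cre in place of a Tbx18 allele, so effects of that allele and of Smad4 loss cannot be told apart. Each of 2 two-colour arrays set 200 ng of RNA of one group against 200 ng of the other: array 1 carried female RNA, with Smad4cKO in green (AlexaFluor555) and control in red (AlexaFluor647), while array 2 carried male RNA, with Smad4cKO in red and control in green. Sex and dye orientation therefore changed together. The number of embryos behind each RNA is not stated. Errors rest on the spread between these 2 arrays, mostly as pooled over genes, and on no other replication. The whole ureter was extracted, and fewer cells of a type and less RNA per cell cannot be told apart.

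The direction of the ratios rests on the dye labels alone. "Smad4cKO channel" and "control channel" stand for the channels to which the dye labels assign those embryos, and ratios are the Smad4cKO channel over the control channel, on the log2 scale. By that reading the smooth muscle myosin gene Myh11 was brighter in the Smad4cKO channel (2.08 on array 1 and 2.65 on array 2). The authors' deposited table, read as the sample titles order the groups, has the opposite direction, with signed folds of -4.66 and -7.30 for Myh11. The 2 Smad4 probes gave -0.31 and -0.69 on array 1 and -0.49 and -0.14 on array 2, and the Tbx18 probe gave 0.07 and 0.81. Whether these probes lie in deleted sequence is not stated in the labels, so they do not settle the direction. With the opposite reading, each "brighter" becomes "dimmer" and the reverse, at equal size. On array 1 and array 2, 70.3% and 69.0% of Smad4cKO spots stood well above background, against 68.3% and 70.1% of control spots. All 7 markers of ureteric mesenchyme and all 12 of urothelium, the epithelial lining, were measurable.

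The probes of the 3 genes that stood apart between the channels are shown first, because they say which stretch of each transcript was read. Each is a 60-base oligonucleotide, of which the first 30 bases are printed, 5′ to 3′, as the deposited files give them. Coordinates are those of the files (build mm9).
Tnfaip6 A_55_P2001818, plus strand, chr2:51911507-51911566: aatgttcaaaacatccagtacaatatttat
Tnfaip6 A_55_P2147081, plus strand, chr2:51912073-51912132: ccaagatctctgagttttctacaaaatggg
Tnfaip6 A_55_P2147083, plus strand, chr2:51912142-51912201: aatttatattaggatttaaggttgttttca
Cd44 A_55_P2166488, minus strand, chr2:102677971-102678030: acagatttcttcgacccaatctcacatcca
Cd44 A_55_P2166486, minus strand, chr2:102672645-102672704: tacattacatggagagccggaagaagacga
Cd44 A_55_P2166501, minus strand, chr2:102654278-102654337: gacgagacccggaatctgcagagtgtggac
Cd44 A_55_P2064043, minus strand, chr2:102651398-102651457: tcagaggcagctggcatcctttgttttgtt
Hapln1 A_66_P117730, plus strand, chr13:89751096-89751155: aacttgacaaatacaccatgcattcttctg
Over their full length the 3 Tnfaip6 probes were rich in A and T, with a G and C content of 23.3%, 35.0% and 20.0% in the order shown. The Cd44 probes had 43.3%, 43.3%, 55.0% and 41.7%, and the Hapln1 probe had 36.7%. No 2 member probes overlapped, so probes of one gene read separate parts of its transcripts from the same RNA.

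Tnfaip6, the secreted protein that binds hyaluronan and transfers heavy chains of inter-alpha-inhibitor onto it, was dimmer in the Smad4cKO channel with all 3 probes on both arrays. Its brightest probe, A_55_P2147081, had processed signals of 120.1 on array 1 and 180.5 on array 2 in the Smad4cKO channel, against 533 and 445 in the control channel. Both Smad4cKO signals lay below both control signals. The loess-normalized log2 ratios were -1.80 on array 1 and -1.05 on array 2, with a mean of -1.43 (SE 0.20, n = 2), or 2.69-fold brighter in the control channel. The second probe, A_55_P2001818, had signals of 53.3 and 67.3 in the Smad4cKO channel and 224 and 174 in the control channel. Its log2 ratios were -1.38 and -0.93, and its groups did not overlap either. The third probe, A_55_P2147083, had signals of 6.06 and 7.90 in the Smad4cKO channel against 43.6 and 23.7 in the control channel. It was not well above background in Smad4cKO on either array and was above it in the control on 1 array only. Its ratio was 1.64-fold brighter in the control channel (4.65-fold from processed signals). That ratio rests on signals near background, so its size is not firm. The processed signals alone, without the offset added before loess, gave 3.31-fold for the first probe and 3.30-fold for the second. The offset of 50 pulls ratios of dim probes towards 0, and values from processed signals are added for the dim probes of members.

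Hapln1, the link protein that locks versican and aggrecan onto hyaluronan, was brighter in the Smad4cKO channel. Its single probe had signals of 1461 and 1665 in the Smad4cKO channel, against 747 and 989 in the control channel. The groups did not overlap. The log2 ratios were 0.85 and 0.76, with a mean of 0.81 (SE 0.13, n = 2), or 1.75-fold, and 1.81-fold from processed signals. Hapln1 is also known as a cartilage gene. Of 6 measurable cartilage markers, 0 were brighter in the Smad4cKO channel on both arrays and 3 were dimmer, and Comp and Matn1 were not above background by the filter used. The summed signal of those 6 markers was 67558 and 60899 in the Smad4cKO channel against 66198 and 85451 in the control channel, and Sox5 gave most of it. The part of cartilage cells in the Hapln1 ratio was not tested.

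Cd44, the main cell-surface receptor for hyaluronan, was brighter in the Smad4cKO channel with all 4 probes on both arrays, and the size depended on the probe. The brightest, A_55_P2166501, had signals of 1061 and 1225 in the Smad4cKO channel against 827 and 924 in the control channel. Its log2 ratios were 0.35 and 0.32 (mean 0.33, SE 0.13, n = 2), or 1.26-fold. A_55_P2064043, which lies at transcript position 5494 of the annotated Cd44 mRNA, had 325 and 387 in Smad4cKO and 233 and 306 in the control, with log2 ratios of 0.41 and 0.26. The first lies at position 2614, and these 2 downstream probes gave similar ratios.

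The other 2 Cd44 probes lie further upstream in the gene, at transcript positions 1777 and 1965. Cd44 transcripts are known to be spliced through a block of variable exons between constant ends, and the files do not say which exons the probes read. A_55_P2166488 had signals of 145 and 129.9 in the Smad4cKO channel, against 48.0 and 61.9 in the control channel. Its log2 ratios were 0.88 and 0.68, or 1.72-fold (2.52-fold from processed signals). A_55_P2166486 had 104 and 132 in Smad4cKO and 49.7 and 76.9 in the control, with ratios of 0.49 and 0.52, or 1.42-fold (1.90-fold from processed signals). For each of the 4 probes both Smad4cKO signals lay above both control signals. The ratios of the 2 upstream probes were larger than those of the 2 downstream probes on each array, and more so from processed signals, where their log2 means were 1.33 and 0.92 against 0.38 and 0.41. The 2 upstream probes were also the 2 dimmest Cd44 probes, so probe position and brightness cannot be told apart. This difference between probes of one gene was noticed in the data and was not tested.

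**Figure D1:**
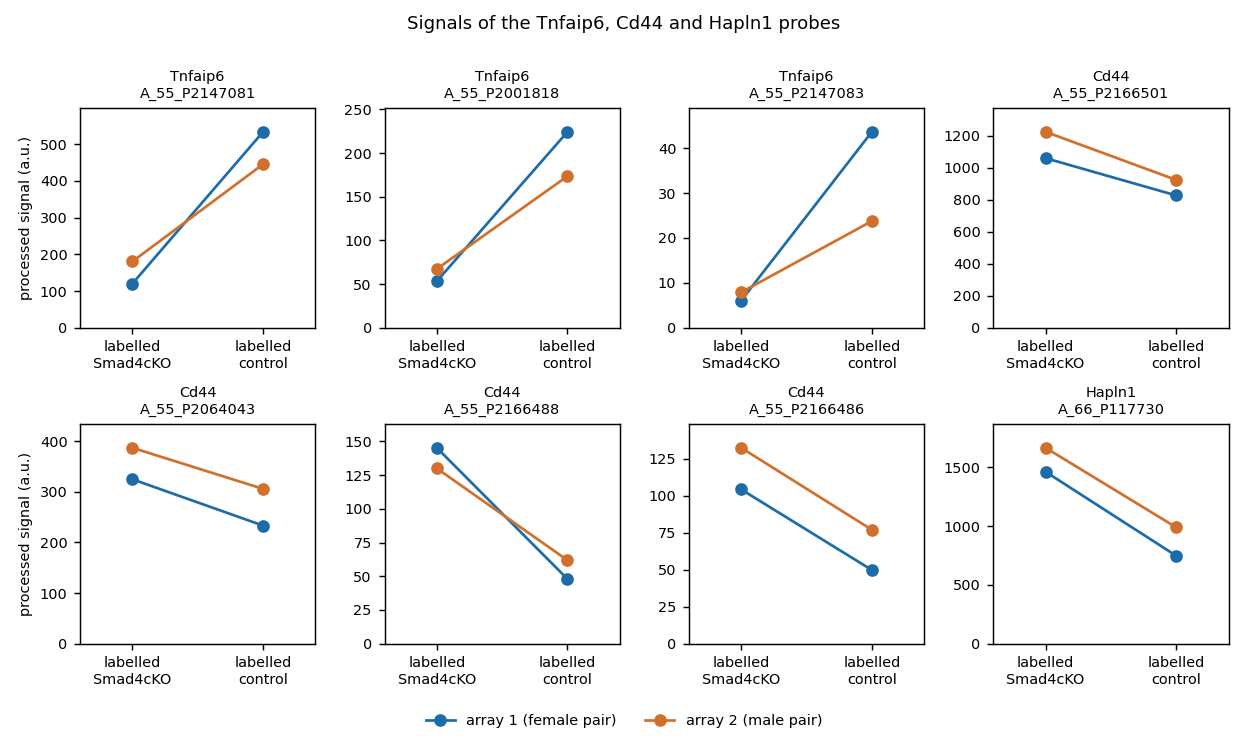
Processed signals (vertical axis, arbitrary units, starting at 0) of the probes of Tnfaip6, Cd44 and Hapln1 in the Smad4cKO channel (left) and the control channel (right), with a line joining the channels of each array. Lines rise to the right for the 3 Tnfaip6 probes and fall to the right for the 4 Cd44 probes and the Hapln1 probe on both arrays. Scales differ between panels, and signals of different probes cannot be set against each other.

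The 3 hyaluronan synthases showed no common direction. Has2, the synthase that makes most hyaluronan in the mouse embryo, had signals of 3121 and 3269 in the Smad4cKO channel against 2878 and 3209 in the control channel. The groups overlapped, and the log2 ratios were 0.14 and 0.0043 (mean 0.07, SE 0.13, n = 2). Has3, which makes shorter chains in vitro, had signals of 89.3 and 60.6 in Smad4cKO and 69.2 and 56.3 in the control. It was slightly brighter in Smad4cKO on each array, but its groups overlapped, with ratios of 0.19 and 0.02 (0.37 and 0.11 from processed signals). Has1 had 39.1 on array 1 and 124 on array 2 in the Smad4cKO channel, against 121 and 81.3 in the control channel. Its log2 ratio was -1.01 on array 1 but 0.38 on array 2, averaging -0.31 (SE 0.32, n = 2; -1.64 and 0.61 from processed signals), so the arrays opposed each other. On both arrays the red channel was the brighter one for Has1. The summed signal of 7 erythroid markers was likewise higher in red, with 139864 and 207419 in the Smad4cKO channel against 212941 and 140353 in the control channel. Hba-a1 and Hbb-bt gave most of it and were the 2 that changed sign. Of the others, 1 was brighter in the Smad4cKO channel on both arrays and 4 were dimmer. The part of these markers in the Has1 ratios was not tested. Sex and dye cannot be told apart in this design.

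The hyaluronidases and the brightest versican probe changed sign between the arrays after loess. Hyal1, the lysosomal hyaluronidase, had 1170.3 and 1643 in the Smad4cKO channel against 1222 and 1635 in the control channel, with ratios of -0.11 and 0.04. Hyal2, the membrane-anchored enzyme that starts the breakdown of long chains, had 22819.7 and 17880.2 in Smad4cKO against 15629 and 23487 in the control. Its ratio was 0.50 on array 1 but -0.29 on array 2, averaging 0.11 (SE 0.21, n = 2), and the green channel was the brighter one on both arrays. With median centring in place of loess its ratios were 0.02 and 0.21. The summed signal of 12 urothelial markers was also higher in green, with 110557 and 96056 in the Smad4cKO channel against 79191 and 117068 in the control channel. Krt8 and Krt18 gave most of it, and the list did not move as one. Singly, 4 markers were brighter in the Smad4cKO channel on both arrays, 2 were dimmer and 6 changed sign. The part of these markers in the Hyal2 ratios was not tested. Vcan was read by 3 probes. The brightest, A_55_P1960202, at transcript position 12207, had 22239 and 24904 in the Smad4cKO channel and 24275 and 26856 in the control channel, with ratios of -0.16 and 0.0096. Its processed signals were dimmer in the Smad4cKO channel on both arrays (-0.13 and -0.11), while median centring gave -0.68 and 0.52. A_55_P1960208 gave 0.49 and -0.13, and A_52_P1044655, a dim probe that was above background in the control on 1 array only, gave 0.01 and 0.12 (0.01 and 0.27 from processed signals). All 3 Vcan probes had overlapping groups, and the sign of the Vcan mean depended on the probes used: it was -0.07 with the brightest probe and 0.05 with the mean of the 3.

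Hapln3, a link protein gene expressed widely outside cartilage, was close to 0 and did not share the ratio of Hapln1. Probe A_51_P244213 had signals of 1925 and 2072 in the Smad4cKO channel against 1957 and 2396 in the control channel, with ratios of -0.07 and -0.14 (mean -0.11, SE 0.13, n = 2). Its other probe had ratios of 0.12 and -0.42. Both probes had overlapping groups.

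**Figure D2:**
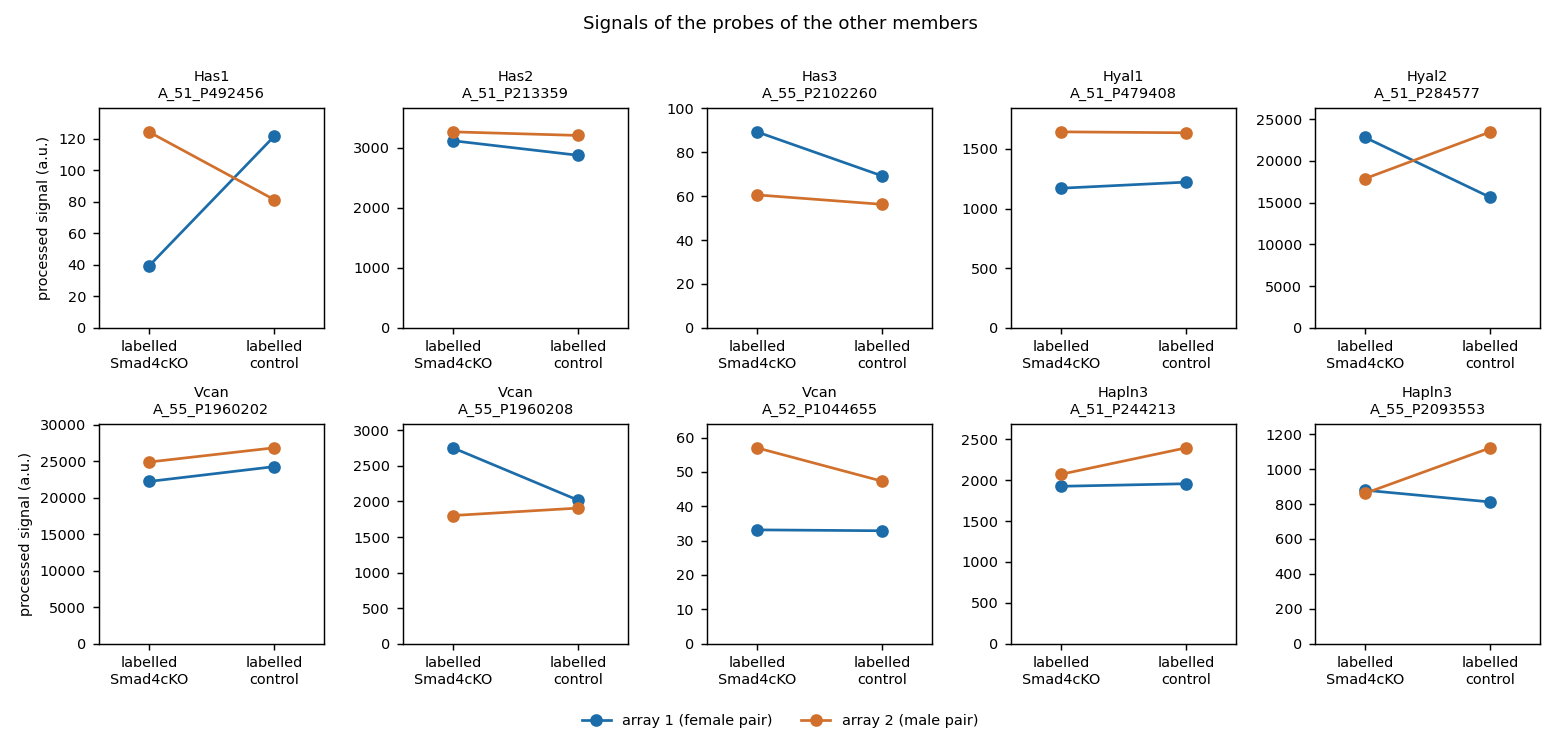
Processed signals (vertical axis, arbitrary units, starting at 0) of the probes of Has1, Has2, Has3, Hyal1, Hyal2, Vcan and Hapln3 in the Smad4cKO channel (left) and the control channel (right), with a line joining the channels of each array. In every panel the groups overlap. The lines of the arrays slope in opposite directions for Has1, Hyal1, Hyal2, Vcan A_55_P1960208 and Hapln3 A_55_P2093553.

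Among the 10 genes, each represented by its brightest measurable probe, on both arrays 4 were brighter in the Smad4cKO channel and 2 were dimmer and 4 changed sign between arrays. Over all 21237 genes measured, 19.9% were brighter on both arrays, 19.8% dimmer on both, and 60.3% changed sign. Past 1.5-fold, with one direction shared by the arrays, were 1 brighter member, Hapln1, and 1 dimmer member, Tnfaip6. The same rule was met by 0.49% of all genes in the brighter and 0.523% in the dimmer direction (1.01% in either), and 1.25% passed 1.5-fold in opposite directions, with 0 members among them. Signals of the groups did not overlap for 3 of the 10 genes (Tnfaip6, Cd44 and Hapln1), against 17.3% of all genes (8.64% brighter and 8.65% dimmer). The median log2 ratio of the 10 genes was 0.018, and that of all genes was 0.0047. Because the comparison chose the members, nothing is read from these shares.

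**Figure D3:**
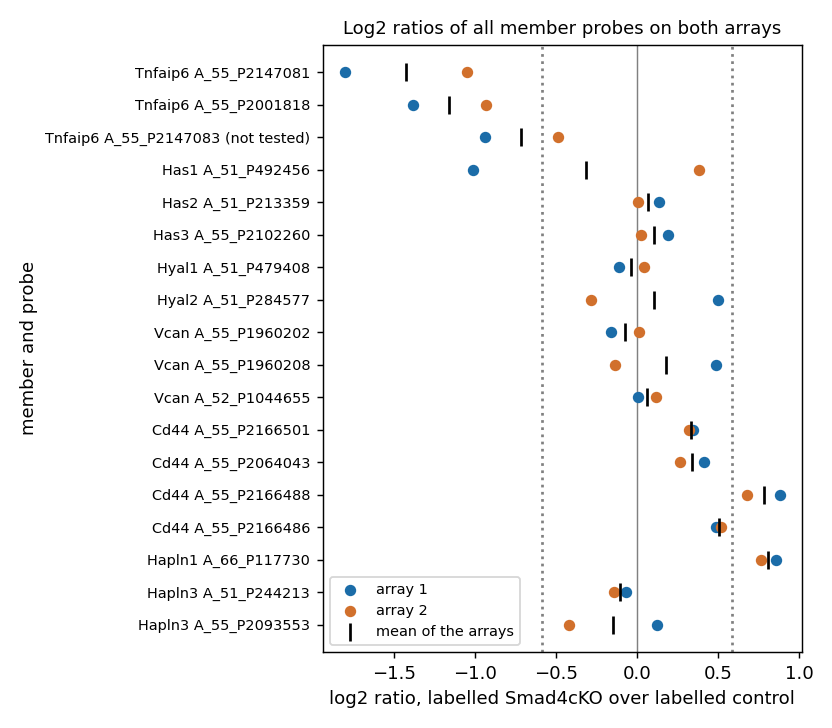
Log2 ratios of Smad4cKO channel over control channel (horizontal axis) for each of the 18 member probes (rows), with a point for each array and a black tick at their mean. Dotted lines mark 1.5-fold. The 3 Tnfaip6 probes lie left of 0 and the 4 Cd44 probes and the Hapln1 probe right of 0 on both arrays. Has1, Hyal1, Hyal2, Vcan A_55_P1960202 and A_55_P1960208, and Hapln3 A_55_P2093553 have a point on each side.

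A wider set of 52 genes, listed by role in hyaluronan biology with earlier results of these data known, gave the surroundings of these members, and 43 of them were measurable. Calls on this set are therefore not independent evidence. Hyal4, Hyal5, Hyal6, Spam1 and Cemip among degradation genes, and Bcan, Hapln2, Hapln4 and Itih3 among matrix genes, were not. Limma, a linear model fitted across all genes with Benjamini-Hochberg adjustment, called 0 of the 43 in either direction at an adjusted p under 0.05, and 0.00471% of all genes. At an unadjusted p under 0.05 it had 7 brighter and 3 dimmer, against 2.14% and 2.97% of all genes. The signs agreed on both arrays for 19 brighter and 10 dimmer genes, against 19.9% and 19.8% of all genes. The 1.5-fold rule was passed by 3 brighter and 1 dimmer, against 0.49% and 0.523% of all genes. The same shares belong beside the counts of each list below. The median log2 ratio of the 43 genes was 0.07. When limma was run with a trend on intensity and robust variances, it called 3 brighter (Hyal3, Itih5 and Mmp9) and 2 dimmer (Adamts15 and Adamts20). Of all 21237 genes it then called 298 brighter and 407 dimmer. The same 5 genes were called from processed signals, with 144 brighter and 161 dimmer of all genes. Hyal3 and Mmp9 passed the filter only through the Smad4cKO channel, where they are bright. Their calls and their place past 1.5-fold lean on that filter and are no support.

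Enzymes that cut versican formed 1 of the wider lists, drawn up with earlier results known, so nothing is read from their counts. Of 6 ADAMTS proteases known to cleave versican, 4 were dimmer in the Smad4cKO channel on both arrays, 0 were brighter on both and 2 changed sign. Over all genes measured, 19.8% were dimmer on both arrays, 19.9% were brighter on both and 60.3% changed sign. The list median was -0.30. Adamts15 had signals of 4426 and 5237 in the Smad4cKO channel against 8142 and 9289 in the control channel. Its groups did not overlap, and its log2 ratio was -0.84 (SE 0.13, n = 2, limma adjusted p = 0.163). This was the dimmer gene past 1.5-fold, and with median centring in place of loess 0 genes of the wider set passed that rule in this direction. Adamts20, a dim probe, gave -0.60 ± 0.13 (-0.88 from processed signals), Adamts9 gave -0.48 ± 0.13 (log2, SE, n = 2), and Adamts5 gave -0.13 ± 0.13.

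The other genes of hyaluronan-binding matrix and of sugar supply went both ways. Itih5, of the family of inter-alpha-inhibitor heavy chains, had 1387 and 1742 in the Smad4cKO channel against 839 and 975 in the control channel. Its log2 ratio was 0.74 (SE 0.13, n = 2, limma adjusted p = 0.222). Ptx3, a pentraxin that works with TSG-6 in the hyaluronan matrix around the mouse oocyte, gave 0.42 ± 0.13, while Itih4 gave 0.18 ± 0.14 and the brain proteoglycan gene Ncan -0.15 ± 0.13. Of the 11 measurable genes in this list, 6 were brighter on both arrays and 1 was dimmer. Ugdh, which makes UDP-glucuronic acid, a building block of hyaluronan, had 15154 and 17458 in Smad4cKO against 11215 and 11367 in the control. Its ratios were 0.48 and 0.61, so it stayed under 1.5-fold on array 1. The hexosamine pathway genes Gfpt1 (-0.04 ± 0.13) and Gfpt2 (0.21 ± 0.15) were closer to 0, and of the 7 supply genes 2 were brighter on both arrays, 1 was dimmer and 4 changed sign.

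Among other degradation genes, Hyal3, a hyaluronidase gene, had signals of 61.6 and 78.4 in the Smad4cKO channel against 8.28 and 26.2 in the control channel. Hyal3 was 1.88-fold brighter in the Smad4cKO channel (limma adjusted p = 0.150), with log2 ratios of 2.90 and 1.58 from processed signals. It was not well above background in the control on either array, so the size of this ratio is not firm. Gusb, a lysosomal enzyme that takes hyaluronan fragments apart, gave a small ratio of 0.17 ± 0.13, and Hexa gave 0.10 ± 0.13. Among genes tied to CD44, Mmp9, the gelatinase known to dock on CD44, had 81.9 and 100.8 in Smad4cKO against 28.8 and 31.4 in the control. Mmp9 was 1.70-fold brighter in the Smad4cKO channel (limma adjusted p = 0.192), with log2 ratios of 1.53 and 1.72 from processed signals. It too was not well above background in the control, so the size of this ratio is not firm either. Mmp14, which sheds CD44, gave -0.11 ± 0.13, and the linkers of CD44 to actin, Msn and Ezr, gave 0.06 ± 0.13 and 0.04 ± 0.13. In this list of 7 measurable genes, 3 were brighter on both arrays, 1 was dimmer and 3 changed sign.

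Other receptors of hyaluronan included the scavenger receptor genes Stab1 (0.45 ± 0.14) and Stab2 (0.44 ± 0.14), carried by sinusoidal and lymphatic endothelium and by macrophages, and Tlr4 (0.25 ± 0.14). Of the 7 receptors, 5 were brighter on both arrays and 2 dimmer. Beside these and Cd44, 3 of 9 measurable macrophage and leukocyte markers were brighter on both arrays and 0 dimmer, and their summed signal was 14835 and 16270 in the Smad4cKO channel against 12819 and 16324 in the control channel, which overlap. Of 8 endothelial markers 4 were brighter on both arrays and 4 changed sign. Their sums, 36898 and 39797 in Smad4cKO and 32531 and 37512 in the control, overlap too. Of 3 measurable lymphatic markers 2 were brighter and 1, Pdpn, dimmer on both arrays, and Prox1 was not measurable. The lymphatic sums, 8680 and 10685 in Smad4cKO against 10241 and 12466 in the control, also overlap. The part of these cell types in the Cd44 and receptor ratios was not tested.

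**Figure D4:**
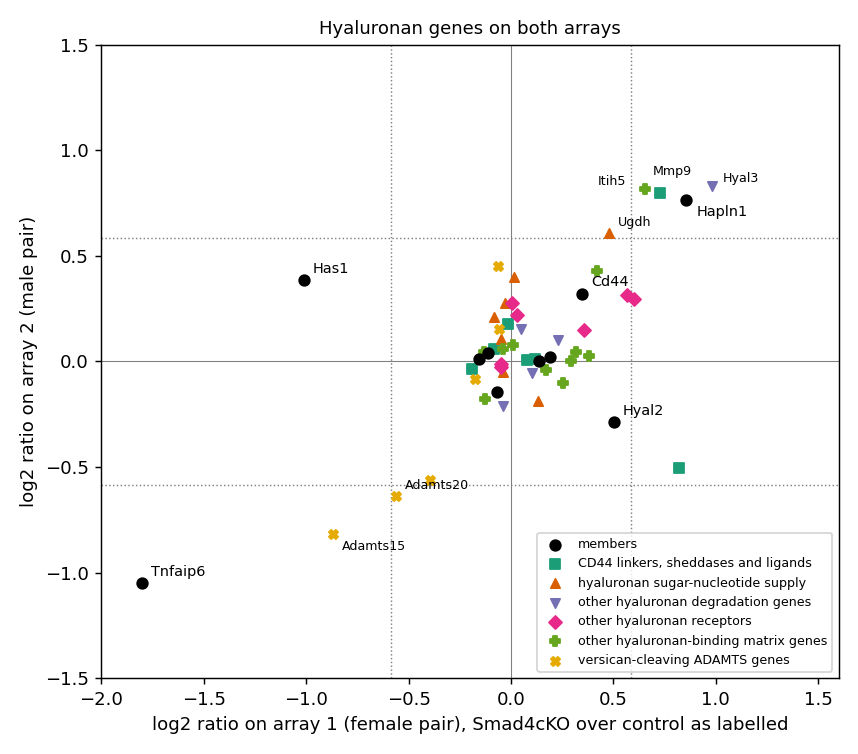
Log2 ratio on array 1 (horizontal, female pair) against array 2 (vertical, male pair) for the 10 members (black circles) and the 43 measurable genes of the wider set (coloured by list), Smad4cKO channel over control channel. Dotted lines mark 1.5-fold. Hapln1, Hyal3, Itih5 and Mmp9 lie past 1.5-fold in the upper right and Tnfaip6 and Adamts15 in the lower left. Has1 and Hyal2 lie, with other genes, in the quadrants where the arrays oppose each other.

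Markers of several cell types are given beside the members, which shared no direction. Of 7 ureteric mesenchyme markers, 4 were brighter in the Smad4cKO channel on both arrays, 1 was dimmer and 2 changed sign. Their sums were 102927 and 106656 in the Smad4cKO channel against 81653 and 89405 in the control channel, and Tcf21 and Tbx3 gave most of them. All 8 smooth muscle markers were brighter in the Smad4cKO channel on both arrays. Their summed signals were 42572 and 61441, against 27186 and 27499 in the control channel. All 10 neuronal and glial markers were dimmer on both arrays, with sums of 7772 and 8496 in Smad4cKO against 13265 and 11558 in the control. Of 9 kidney and nephric markers, 5 were dimmer on both arrays and 0 brighter, with sums of 22810 and 27169 against 29944 and 29079. Mesothelial markers had 2 of 6 dimmer and 0 brighter on both arrays, with overlapping sums of 32343 and 28598 in Smad4cKO and 26384 and 36375 in the control. The part of these cells in the Tnfaip6, Cd44 and Hapln1 ratios was not tested.

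SMAD4 binds DNA, and a short core sequence that SMAD proteins are known to bind is CAGAC. It was looked for, on both strands, in the 250 bases before the start of each gene in RefSeq sequences (build GRCm38.p6), which held 8 of the 10 members. Has2 and Has3 are not among them. The upstream sequences of the 3 genes that stood apart are printed 5′ to 3′ on the gene's strand, with a match in capitals. A match on the other strand reads GTCTG.
Tnfaip6, plus strand, chr2:52037863-52038112: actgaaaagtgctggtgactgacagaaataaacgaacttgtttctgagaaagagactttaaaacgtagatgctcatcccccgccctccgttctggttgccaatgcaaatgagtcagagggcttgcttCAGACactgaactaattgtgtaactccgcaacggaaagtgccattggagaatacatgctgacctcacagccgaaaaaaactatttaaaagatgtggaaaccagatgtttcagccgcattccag
Hapln1, plus strand, chr13:89540386-89540635: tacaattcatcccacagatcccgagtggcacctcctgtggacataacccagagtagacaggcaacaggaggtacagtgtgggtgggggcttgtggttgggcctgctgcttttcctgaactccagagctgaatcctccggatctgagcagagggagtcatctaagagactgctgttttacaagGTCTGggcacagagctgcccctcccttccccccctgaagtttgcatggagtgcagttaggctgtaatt
Cd44, minus strand, chr2:102901666-102901915: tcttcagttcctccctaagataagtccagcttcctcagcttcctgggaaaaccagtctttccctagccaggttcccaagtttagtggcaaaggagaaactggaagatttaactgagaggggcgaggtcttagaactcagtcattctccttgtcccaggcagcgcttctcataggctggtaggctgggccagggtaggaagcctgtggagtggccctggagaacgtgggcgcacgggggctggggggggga
The Tnfaip6 sequence held 1 match, beginning 123 bases before the start, and the Hapln1 sequence 1 match, 68 bases before it. Cd44 held 0 matches in this window. Of the 8 members 5 had a match, and so did 42.2% of 32851 RefSeq upstream sequences of the same length. A second motif, GGCGCC, which is its own reverse complement, occurred in 0 of the 8 and in 9.59% of all. These matches describe letters in a window and not sites of binding.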

How the data were processed

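The members and gene lists were chosen with earlier results of these data known. Scans were read with Agilent Feature Extraction 10.7.3.1, as the submitters' processing notes state. The deposited files hold, per the file headers, spot intensity (mean, background and processed signals, the last spatially detrended and dye-normalized), a log10 ratio of red over green, and mm9 coordinates. The authors' deposited table holds a score, a signed fold, whose log2 lay within 0.001 of a constant shift of the processed signals for 99.98% of 26077 probes on array 1 and 100% of 26309 on array 2. By the dye labels it is control over Smad4cKO. Its making is not described in the labels.

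Mean signals were corrected with normexp (offset 50) and loess (limma 3.58.1, R 4.3.3), with 1377 control spots left out of the loess fit. Replicate spots were averaged per probe, and outlier spots were left out at this step. Measurable probes had one labelled group well above background on array 1 and array 2 (26669 probes, 17 of the 18 member probes). The brightest such probe stood for a gene. Names came from accessions matched to RefSeq for 26412 of 39429 probes, and otherwise from the files. Limma tested the ratios against 0 with 1 residual and 4.89 prior degrees of freedom, after tests on simulated data. Its SE rests mostly on the spread pooled over genes. The fold rule asked each array for 1.5-fold, in one direction. The number of arrays limits the precision.

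Named genes are all members, Smad4, Tbx18 and Myh11, wider genes past 1.5-fold, and up to 3 more per wider list whose arrays share a sign, ordered by the smaller absolute ratio. One gene that this rule names is not reported here. Alternatives covered background, normalization, filter, outliers, probe summary, threshold and each array left out.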

Additional observations from a re-analysis of the deposited data

Results flagged for a closer look

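For 4 members the female pair on array 1 and the male pair on array 2 had loess-normalized ratios of opposite sign, with 1 array on each side, and the difference was not tested. Has1 differed by -1.40 on the log2 scale between array 1 (-1.01) and array 2 (0.38). Hyal2 differed by 0.787, with 0.50 on array 1 and -0.29 on array 2. Hyal1 differed by -0.152 and Vcan by -0.167, both with loess-normalized ratios near 0 on each array. The opposition depended on the processing for Hyal2, with 0.02 and 0.21 under median centring, and for Vcan, with -0.13 and -0.11 from processed signals, -0.12 and -0.10 from the authors' deposited table and -0.14 and -0.01 with an offset of 10. Median centring widened that of Vcan to -0.68 and 0.52. Across all 21237 genes, 60.3% changed sign between the arrays. Sex and dye orientation cannot be told apart here.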

How the results depend on the processing

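The limits are those of 2 arrays with 1 residual degree of freedom. No paired analysis was possible because each ratio already pairs the channels of 1 array and no second pairing exists. Tnfaip6 kept a negative ratio (-1.73 to -1.29) and Cd44 (0.335 to 0.49) and Hapln1 (0.809 to 0.867) positive ratios under all 9 alternatives that recompute the ratios over both arrays. These are not 9 separate checks. The alternative filters returned the main values for these genes, as did keeping outlier spots, since 0 member spots were outliers. The authors' deposited table is nearly a constant shift of the processed signals. Dim probes are limited by background, and the offset of 50 shrinks their ratios. The median of the members was 0.018, 0.063 when probes were averaged per gene, and 0.016 to 0.036 with 1 array left out.

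At 2-fold in place of 1.5-fold, 0 members were brighter and 1 (Tnfaip6) dimmer, and 0 genes of the wider set were brighter and 0 dimmer. Over all genes 21 were brighter, 25 dimmer and 28 opposite, against 104, 111 and 266 at 1.5-fold. With 1 array left out the 1.5-fold counts were 1 to 1 brighter and 1 to 2 dimmer members, 4 to 5 brighter and 1 to 2 dimmer wider genes, and 256 to 635 brighter and 242 to 684 dimmer of all genes. The authors' deposited table gave, at 1.5-fold, 177 genes brighter and 184 dimmer, and processed signals gave 184 and 199. With median centring 1440 genes were opposite and 0 wider genes dimmer. The dimmer wider genes numbered 2 with the authors' deposited table, with an offset of 10 and with processed signals. Requiring both groups above background left 1 brighter wider gene, since Hyal3 and Mmp9 were then not measured.

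Limma called 0 genes brighter and 1 dimmer. It called 71 and 77 from the authors' deposited table, 1 and 3 with both groups above background, 35 and 31 with an offset of 10, 144 and 161 from processed signals, and 298 and 407 with trend and robust empirical Bayes. The dimmer count was 0 with the mean of probes, with median centring and with outlier spots kept. Among wider genes limma called 2 brighter from the authors' deposited table and 1 with an offset of 10, and 3 brighter and 2 dimmer from processed signals and with trend and robust empirical Bayes. Except for the filter and the threshold, the cause was not tested. With 1 array left out limma had no residual degrees of freedom.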
